A study of Mus musculus with 6 samples.

Results

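The enzymes of glycolysis, the pentose phosphate pathway and the TCA cycle were followed as 44 genes in mouse liver, of 20659 genes that the array's probes name: 18 of glycolysis with lactate formation and the entry of fructose, 8 of the pentose phosphate pathway and 18 of the TCA cycle. The members were taken by name, through the RefSeq accession of each probe. No cut-off on a measured value was used, but the list was chosen with earlier results of these data known. None of the 41 members measured passed the test at an adjusted p under 0.05 (limma, Benjamini-Hochberg over 14805 genes), against 0.466% of all genes. The largest mean differences among the members were lower signals of Ldhb and Khk and a higher signal of Pkm in livers of DECB mice.

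The study asks how a deproteinized extract of calf blood, labelled DECB, bears on energy metabolism in mice tested for tolerance of acute hypoxia. DECB livers came from male ICR mice, an outbred stock, of 18 to 22 g, given DECB into the stomach at 0.08 mL per 20 g once a day for 35 days; control livers came from male ICR mice of the same weight given the same volume of normal saline for 35 days. The study had 24 mice, 12 in each group, and 6 arrays, DECB 4, 5 and 6 and control 1, 2 and 3. The sample descriptions give 30 days for DECB and 1 day for control samples, which differs from the protocol, and the labels do not state when livers were taken relative to the hypoxia test. The labels do not say whether each array came from its own mouse or from pooled mice, so the p-values cover only the spread between these arrays, which may be technical.

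Glycolysis splits glucose into pyruvate in the cytosol and yields a little ATP without oxygen, with lactate dehydrogenase regenerating the cofactor when pyruvate is not oxidised. The pentose phosphate pathway branches off at glucose 6-phosphate and makes NADPH, used for lipid synthesis and antioxidant defence, and ribose for nucleotides. The TCA cycle oxidises acetyl groups in mitochondria and feeds the respiratory chain. The liver has its own isozyme of pyruvate kinase, and it takes up most dietary fructose through ketohexokinase.

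The promoters of the 3 members with the largest differences (Ldhb, Khk and Pkm) and of the liver pyruvate kinase gene Pklr are shown. Other pathway genes described below, among them Pfkfb3, Pfkfb4 and Idh1, differed more than those 3 members and are not shown. Each run is the 250 bases before a transcript start, from the RefSeq table of the GRCm38.p6 build, written 5′ to 3′ on the gene's strand. Capitals mark CACGTG, the E-box letters, in Khk, and CACGGG followed after 5 bases by CCCGTG, a carbohydrate response element with a pair of imperfect E-boxes, in Pklr.
Khk chr5:30921309-30921558 (+): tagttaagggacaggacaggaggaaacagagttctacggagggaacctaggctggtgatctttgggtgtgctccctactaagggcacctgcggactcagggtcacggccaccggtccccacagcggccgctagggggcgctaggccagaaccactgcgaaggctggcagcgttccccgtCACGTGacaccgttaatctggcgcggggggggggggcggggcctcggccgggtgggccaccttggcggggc
Pklr chr3:89136373-89136622 (+): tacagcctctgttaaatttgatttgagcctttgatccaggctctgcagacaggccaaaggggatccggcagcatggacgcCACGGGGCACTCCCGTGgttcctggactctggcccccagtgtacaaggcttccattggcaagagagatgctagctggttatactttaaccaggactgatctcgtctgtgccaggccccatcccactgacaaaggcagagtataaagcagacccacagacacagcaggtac
Ldhb chr6:142507958-142508207 (-): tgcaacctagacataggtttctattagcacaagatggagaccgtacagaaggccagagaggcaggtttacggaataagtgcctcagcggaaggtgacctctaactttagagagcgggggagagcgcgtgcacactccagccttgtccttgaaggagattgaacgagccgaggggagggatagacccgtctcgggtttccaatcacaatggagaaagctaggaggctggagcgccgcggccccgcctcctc
Pkm chr9:59656326-59656575 (+): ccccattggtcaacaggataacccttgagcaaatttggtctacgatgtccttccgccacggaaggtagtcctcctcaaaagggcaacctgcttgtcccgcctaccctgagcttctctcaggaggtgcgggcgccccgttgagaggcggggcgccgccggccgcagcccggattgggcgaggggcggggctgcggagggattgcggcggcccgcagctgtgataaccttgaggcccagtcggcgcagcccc
The Khk match lay at bases -71 to -66 from the start and the Pklr match at -170 to -154. CACGTG, which contains ACGTG, was present in a window of 4 of the 42 members with an entry (9.52%) and of 6.86% of all 27025 genes, counting both strands. ACGTG, a form of the core that hypoxia-inducible factors bind, was present in 13 of the 42 (31.0%) and in 18.5% of all genes. Pkm and Pklr have 2 windows each, of which 1 is shown, and the Pkm window not shown holds 1 ACGTG. The pair CACGGG and CCCGTG at that spacing was found in 1 of 32851 windows, that of Pklr. A match is a description of letters in these windows, not a site in use.

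Signals are on the log2 scale, relative to the 75th percentile of each array (0 is that percentile), and every difference is DECB minus control on that scale. Arrays that share a scan time in the file headers are called a slide here. Slide 1 held DECB 6 and control 1, slide 2 held DECB 4 and controls 2 and 3, and slide 3 held DECB 5 alone. The slide 1 arrays were dim, with a 75th percentile of 84.8 (DECB 6) and 78.8 (control 1) against 422 to 551 on the other 4, and 14922 to 29490 probes per array were well above background. Control 2 and control 3 correlated at r = 0.992 across genes, against 0.901 to 0.968 for every other pair, and a setting that averaged them called 0 members (2 at an unadjusted p under 0.05, limma). The 10 hepatocyte markers were all measured, with a summed signal of 2470 to 3080 times the 75th percentile in DECB and 2890 to 3360 in control arrays. Lists for other cell types gave overlapping signals, stated here for DECB and then control arrays. Endothelial markers (8 of 8 summed) gave 15.8 to 31.9 and 21.9 to 40.1. Stellate cell and fibroblast markers (7 of 8) gave 26.5 to 60.5 and 43.8 to 75.1. Lymphocyte markers (4 of 8) gave 0.576 to 0.789 and 0.506 to 0.898, and exocrine pancreas markers (2 of 6) gave 2.12 to 2.53 and 1.61 to 2.23. Of 6 muscle markers only 1, Tnnt3, was measured, at 0.0707 to 0.24 and 0.0325 to 0.166. Tnnt3 was above background on 2 DECB arrays and 1 control array, so its range is not a total for muscle. In whole liver, fewer cells of a type and less RNA per cell cannot be told apart.

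A gene was measured when 1 of its probes passed the scanner's mark for signal above background on 3 or more arrays. Of the 62 member probes 58 were kept, and 38 members were above background on all 6 arrays. The exceptions lay on slide 1: Hk3 and Ldhb were not above background on DECB 6, nor Hk3 and Pkm on control 1. Hk2, Pfkp and Rpia did not pass.

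**Figure D1:**
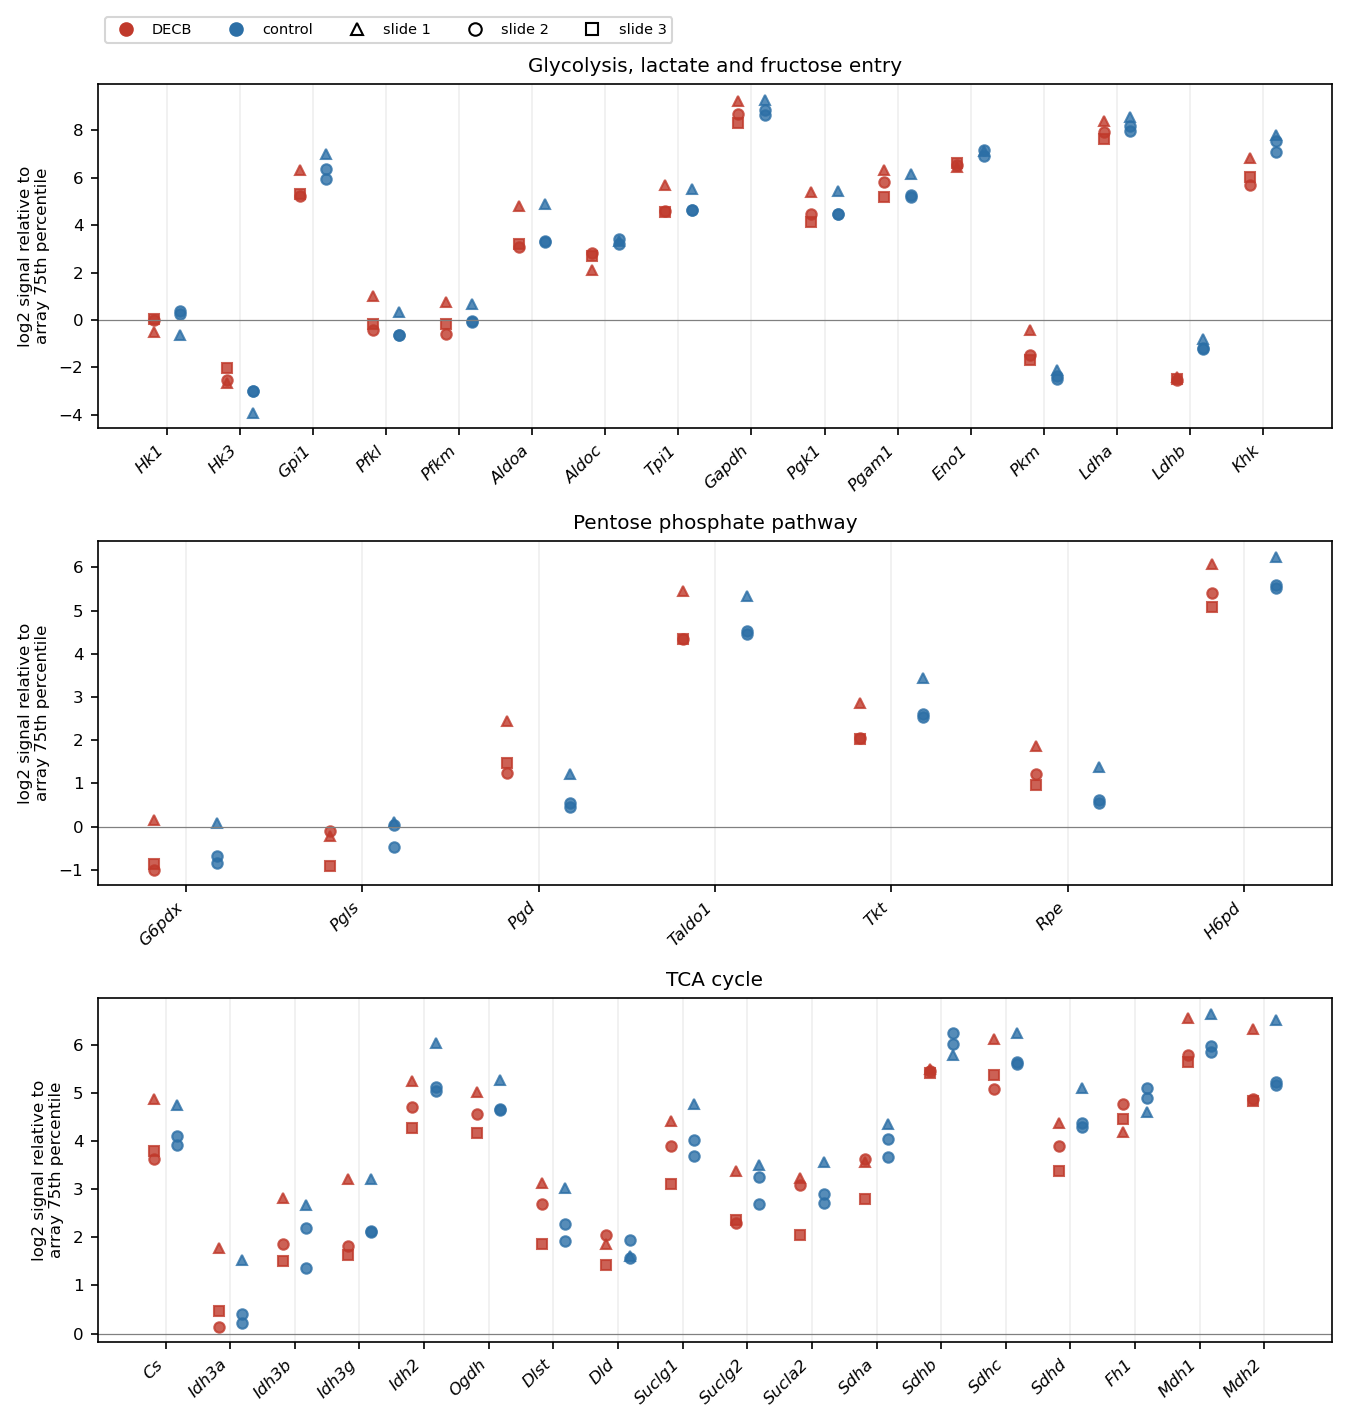
Log2 signal with each array's 75th percentile set to 0 (vertical axis) of the 41 measured members, with DECB arrays in red left of control arrays in blue for each gene, and the marker shape giving the slide. Both slide 1 arrays (triangles) lie above the 4 others for 26 of the 41 members, while Ldhb, Khk and Pkm keep their groups apart.

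Across the 41 members, 31 had a lower mean signal in DECB livers (75.6%, against 52.5% of all genes). The median difference was -0.26, against -0.03 over all genes. Lower means were also the more frequent in some other lists. Below 0 were 9 of 10 hepatocyte markers (median -0.25), 8 of 10 Kupffer cell and macrophage markers (median -0.23) and 8 of 9 other pentose phosphate genes. The lean was not general: 12 of 22 other TCA cycle genes were below 0 (54.5%, median -0.01). So were 0 of 5 neutrophil markers, 0 of 7 cell cycle genes and 1 of 4 bile duct cell markers. Unadjusted p under 0.05 was reached by 6 members (14.6%, against 10.0% of all genes), 3 higher in DECB livers (Hk3, Pkm and Pgd, 7.32%, against 4.22%) and 3 lower (Aldoc, Ldhb and Khk, 7.32%, against 5.79%). The groups did not overlap for 9 members (22.0%, against 16.6% of all genes): the same 6 and Eno1, Sdha and Sdhb, all 3 lower. Over the 41 members together these shares differ little from the background for calls and separation. The 3 that were higher make 7.32% of the members, against 7.24% of all genes, and the 6 that were lower 14.6%, against 9.40%. The pathways were unlike. Unadjusted p under 0.05 (limma) was reached by 5 of 16 glycolysis (31.2%), 1 of 7 pentose phosphate (14.3%) and 0 of 18 TCA cycle members. The groups did not overlap for 6 of 16 (37.5%), 1 of 7 (14.3%) and 2 of 18 (11.1%). Whether the pathways differ was not tested.

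The precision was that of 3 arrays a group. The 95% intervals reached a median of 0.93 to either side of the estimate, close to a 2-fold change. The interval excluded a 2-fold rise for 29 members and a 2-fold fall for 8. Dld, the lipoamide dehydrogenase subunit shared by several dehydrogenase complexes, was the 1 member for which it excluded both (-0.64 to 0.77).

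**Figure D2:**
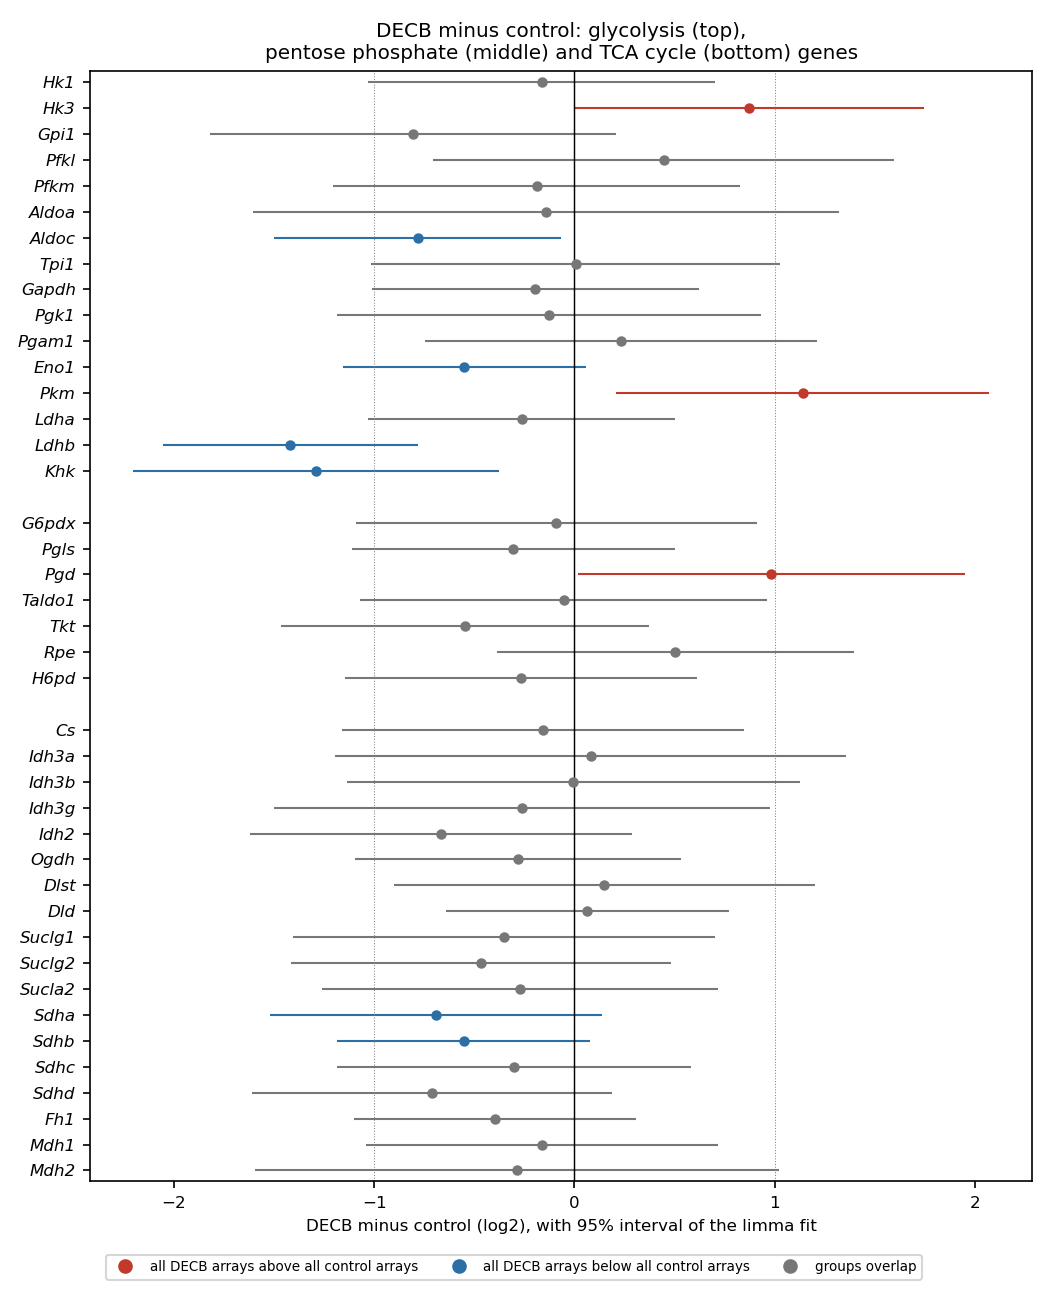
Difference of each measured member, DECB minus control in log2 units (horizontal axis), with the 95% interval of the limma fit, for glycolysis, pentose phosphate and TCA cycle genes from top to bottom. Red and blue mark members whose DECB arrays all lie above or all below the control arrays. The intervals of 6 members stay off 0, and none of these passed the adjusted threshold.

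The entry steps of glycolysis showed no common direction. Hk1, the hexokinase of most tissues, measured -0.02, 0.02 and -0.51 on the 3 DECB arrays and -0.64, 0.27 and 0.36 on the 3 control arrays, a difference of -0.16 ± 0.37 (SE). Hk3, a hexokinase found mainly in myeloid cells, measured -2.55, -2.04 and -2.68 in DECB livers and -3.91, -2.99 and -2.99 in control livers. Its groups did not overlap, and the difference was 0.87 ± 0.37 (SE, adjusted p = 0.499, limma). Hk3 was above background on 2 arrays of each group, so its dimmest values are bounds. With the normexp background correction the difference was 0.32 (adjusted p = 1.0, limma). Of 10 neutrophil markers 5 were measured, and their summed signal was 3.98 to 9.13 in DECB and 1.70 to 7.40 in control arrays. All 5 had higher means in DECB livers, from 0.15 (Ltf) to 1.57 (S100a8) with a median of 0.59. S100a8 (adjusted p = 0.101, limma) and S100a9, at 1.57 too (adjusted p = 0.167, named after its values were seen), did not overlap between the groups. Ly6g, Ngp, Retnlg, Mpo and Cxcr2, which help define that cell type, were not measured. The 10 Kupffer cell and macrophage markers were all measured, with summed signals of 27.4 to 32.3 in DECB and 26.8 to 39.1 in control arrays. The part of these cells in the Hk3 difference was not tested.

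Hk2, the insulin- and hypoxia-responsive hexokinase of muscle and fat, was above background on 2 DECB arrays and on no control array. Its signals were -3.05, -1.69 and -3.77 in DECB livers and -4.01, -4.20 and -4.57 in control livers. With control signals raised to each array's lowest signal counted as above background, the Hk2 mean was 1.67-fold higher in DECB livers. The DECB mean includes an array not above background, so 1.67-fold is not a lower bound. The adjusted p was 0.801 in the limma fit without the filter. Pfkp and Rpia were above background on 1 DECB array only and get no fold.

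Gpi1, which interconverts glucose 6-phosphate and fructose 6-phosphate, measured 5.25, 5.32 and 6.32 in DECB livers and 7.01, 6.36 and 5.93 in control livers. It was lower by 0.81 ± 0.43 on average (SE, adjusted p = 0.638, limma), but the slide 1 DECB array lay among the controls. The phosphofructokinase subunits, which catalyse the committed step, differed by 0.45 ± 0.49 for the liver form Pfkl and by -0.19 ± 0.43 for the muscle form Pfkm. For Pfkl the 95% interval ran from -0.71 to 1.60.

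The aldolases split fructose 1,6-bisphosphate. Aldoc, the brain-type aldolase, measured 2.84, 2.68 and 2.10 in DECB livers and 3.31, 3.43 and 3.22 in control livers. All DECB arrays lay below all control arrays, by 0.78 ± 0.30 on average (SE, unadjusted p = 0.0363, adjusted p = 0.447, limma). Aldoa, the aldolase of muscle and most other tissues, measured 3.08, 3.22 and 4.79 in DECB livers and 4.89, 3.34 and 3.29 in control livers. Its high array in each group was the one on slide 1, and the group difference was -0.14 ± 0.62 (SE).

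Among the steps in the middle of the pathway, the groups overlapped for Tpi1, Pgk1, Pgam1 and Gapdh and did not for Eno1. Tpi1, the triosephosphate isomerase, differed by 0.01 ± 0.43 (SE), Pgk1, a phosphoglycerate kinase that forms ATP, by -0.13 ± 0.45, and the mutase Pgam1 by 0.23 ± 0.42. Gapdh, often used as a loading control, measured 8.68, 8.32 and 9.22 in DECB livers and 9.29, 8.86 and 8.65 in control livers, a difference of -0.19 ± 0.35. Its 7 probes ran from -0.30 to 0.32, the 1 member whose kept probes had both signs. Eno1, the ubiquitous enolase, measured 6.55, 6.61 and 6.44 in DECB livers and 7.13, 7.18 and 6.93 in control livers. Its groups did not overlap and the arrays of each group lay close together, with a difference of -0.55 ± 0.26 (SE, adjusted p = 0.558, limma).

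Pkm, the pyruvate kinase of most tissues and of proliferating cells, measured -1.48, -1.68 and -0.41 in DECB livers and -2.11, -2.38 and -2.49 in control livers. Every DECB array lay above every control array, and DECB 6 was the highest. The difference was 1.14 ± 0.40 (SE), or 2.20-fold, with an unadjusted p of 0.0232 and an adjusted p of 0.378 (limma). Pkm was above background on 3 DECB arrays and 2 control arrays. With the normexp background correction its difference was 0.47 (adjusted p = 1.0, limma). Cell cycle genes, of which 7 of 10 were measured, summed to 2.70 to 5.39 in DECB and 1.07 to 1.28 in control arrays, with DECB 6 the highest here too. Bile duct cell markers, of which 4 of 6 were measured (Krt7 and Epcam were not), summed to 1.40 to 1.89 in DECB and 1.01 to 1.29 in control arrays. The part of these cells in the Pkm difference was not tested.

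The lactate dehydrogenase subunits differed in size of difference. Ldhb, the heart-type subunit, measured -2.54, -2.50 and -2.42 in DECB livers and -0.79, -1.22 and -1.21 in control livers. The DECB arrays lay within 0.13 of each other and well below all controls. The difference of -1.42 ± 0.27 (SE), or 2.67-fold lower, had the smallest p of the members, 0.00114 unadjusted and 0.0931 adjusted (limma). Ldhb was above background on 2 DECB and 3 control arrays, and its value on DECB 6 is not above background. With the normexp background correction its difference was -0.745 (adjusted p = 0.661, limma). Ldha, the main subunit in liver, measured 7.92, 7.65 and 8.39 in DECB livers and 8.58, 8.20 and 7.97 in control livers, with overlapping groups and a difference of -0.26 ± 0.33 (SE). The test of Ldhb against Ldha was not run. Red blood cell markers, of which 5 of 7 were measured, summed to 16.2 to 41.9 in DECB and 65.0 to 98.4 in control arrays. Of these markers 4 had lower means in DECB livers and 1 a higher mean, from -2.29 (Hbb-bt) to 0.88 (Alas2). The part of these cells in the Ldhb difference was not tested.

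Khk, the ketohexokinase that phosphorylates fructose and whose promoter is shown above, measured 5.70, 6.03 and 6.83 in DECB livers and 7.82, 7.53 and 7.08 in control livers. All DECB arrays lay below all controls, although DECB 6 came within 0.25 of control 3. The difference was -1.29 ± 0.39 (SE), or 2.44-fold lower, with an unadjusted p of 0.0124 and an adjusted p of 0.283 (limma).

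In the oxidative branch of the pentose phosphate pathway, Pgd had the largest difference; its difference from the other genes of the branch was not tested. Pgd, the phosphogluconate dehydrogenase that makes the second NADPH of the branch, measured 1.25, 1.48 and 2.44 in DECB livers and 1.21, 0.46 and 0.55 in control livers. The groups did not overlap, but DECB 4 and control 1 were only 0.04 apart. The difference was 0.98 ± 0.41 (SE), or 1.98-fold, with an unadjusted p of 0.0471 and an adjusted p of 0.487 (limma). G6pdx, the dehydrogenase that controls entry into the branch, measured -0.996, -0.86 and 0.14 in DECB livers and 0.08, -0.68 and -0.85 in control livers, a difference of -0.09 ± 0.42. Pgls, the lactonase between these steps, differed by -0.30 ± 0.34. H6pd, which catalyses the G6pdx and Pgls steps inside the endoplasmic reticulum, differed by -0.27 ± 0.37.

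The non-oxidative branch converts pentoses back to glycolytic sugars. Tkt, the transketolase, differed by -0.55 ± 0.39 (SE), and Rpe, the ribulose-phosphate epimerase, by 0.50 ± 0.38, both with overlapping groups. Taldo1, the transaldolase, measured 4.34, 4.34 and 5.46 in DECB livers and 5.34, 4.52 and 4.45 in control livers, so that its spread followed the slide and not the treatment. Over the 7 measured members of the pathway the median difference was -0.09. It was 0.12 without DECB 4, 0.05 without DECB 5 and 0.19 without control 1, so its direction depends on single arrays.

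The TCA cycle genes showed small differences that mostly pointed down. Of 18 members 15 had a lower mean in DECB livers (83.3%, against 52.5% of all genes), the differences ran from -0.71 (Sdhd) to 0.15 (Dlst), and none reached an unadjusted p under 0.05 (limma). The median was -0.28. At the steps of citrate and isocitrate, Cs, the citrate synthase, differed by -0.16 ± 0.43 (SE), the NAD-dependent isocitrate dehydrogenase subunits Idh3a, Idh3b and Idh3g by 0.08, -0.01 and -0.26, and the NADP-dependent mitochondrial Idh2 by -0.67 ± 0.40. Idh2 measured 4.72, 4.27 and 5.25 in DECB livers and 6.04, 5.14 and 5.05 in control livers.

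Of the oxoglutarate dehydrogenase complex, Ogdh differed by -0.28 ± 0.35 (SE), Dlst by 0.15 ± 0.45 and Dld by 0.06 ± 0.30. The Ogdh value is from its brightest kept probe, and its other kept probes differed by only -0.046 and -0.049. The succinyl-CoA ligase subunits Suclg1, Suclg2 and Sucla2, which form GTP or ATP directly, differed by -0.35, -0.47 and -0.27, all within 1.2 SE of 0.

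All 4 subunits of succinate dehydrogenase, which is also complex II of the respiratory chain, had lower means in DECB livers. Sdha, the flavoprotein subunit, measured 3.62, 2.80 and 3.58 in DECB livers and 4.35, 3.67 and 4.05 in control livers. Sdhb, the iron-sulfur subunit, measured 5.47, 5.43 and 5.51 in DECB livers and 5.79, 6.25 and 6.03 in control livers. Neither overlapped between the groups. The differences were -0.69 ± 0.35 for Sdha (SE, adjusted p = 0.609, limma) and -0.55 ± 0.27 for Sdhb (SE, adjusted p = 0.586). The membrane anchors Sdhc and Sdhd differed by -0.30 ± 0.38 and -0.71 ± 0.38 with overlapping groups. These values are from the brightest kept probe of each gene. The dimmer kept probe of Sdhb differed by only -0.09, and that of Sdhc by -0.15. Fh1, the fumarase, differed by -0.40 ± 0.30, and the malate dehydrogenases Mdh1 (cytosolic) and Mdh2 (mitochondrial) by -0.16 ± 0.37 and -0.29 ± 0.55.

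Most members differed more between slides than between groups. Both slide 1 arrays lay above the 4 others for 26 of 41 members (63.4%, against 33.0% of all genes) and below them for 1 (2.44%, against 23.6%). The mean of slide 1 minus the mean of the others had a median of 0.79 over the members and 0.22 over all genes, and it was larger than the group difference in 31 of 41 members. Across all genes this gap grew with signal, with medians of -0.37, -0.09, 0.26, 0.49 and 0.64 in 5 equal groups of genes from dim to bright. The brightest of these groups held 28 of the members, whose median gap was 0.78.

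As each array's median deviation of the members from their own means, DECB 4, 5 and 6 were at -0.27, -0.47 and 0.43 and control 1, 2 and 3 at 0.59, -0.13 and -0.13. DECB 6 and control 1, on slide 1, were the 2 high arrays. Over all genes the same medians lay between -0.09 and 0.13.

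**Figure D3:**
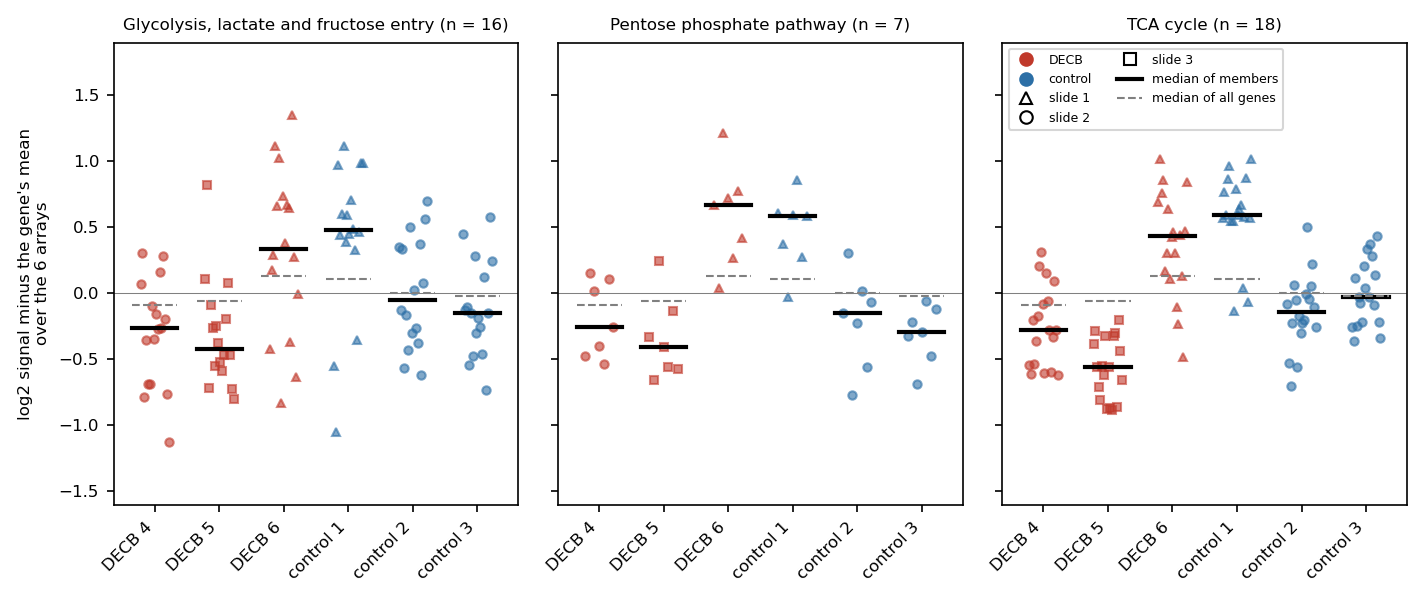
Log2 signal of each member minus its own mean over the 6 arrays (vertical axis), by array, for the 3 pathways. Black bars are the median of the members and dashed lines the median of all genes; on all 3 panels DECB 6 and control 1 (triangles, slide 1) are the high arrays.

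Within slide 1 (DECB 6 minus control 1) the median difference was -0.05 for glycolysis, 0.06 for the pentose phosphate pathway and -0.16 for the TCA cycle, against -0.05 over all genes. Within slide 2 (DECB 4 minus the mean of controls 2 and 3) the medians were -0.20, -0.14 and -0.24, against -0.06 over all genes. Of 41 members, 22 were lower in both slides, 9 were higher in both and 10 had opposite signs. The glycolysis median of -0.18 over all arrays turned to 0.02 without control 1, and the TCA cycle median was -0.02 without DECB 5.

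For the 9 members without overlap the sign within a slide follows from that choice, and only the sizes are given. Khk was lower by 1.00 within slide 1 and by 1.60 within slide 2, and Pgd was higher by 1.24 and 0.74. Eno1 was lower by 0.69 and 0.51, Aldoc by 1.22 and 0.49, Sdha by 0.77 and 0.24, and Sdhb by 0.27 and 0.67. Ldhb was lower by 1.34 within slide 2, Pkm higher by 0.96 and Hk3 higher by 0.44; on slide 1 these genes were not above background on 1 or both arrays, and no value is given.

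With slide as a fixed block in limma, 3 members passed the threshold (7.32%, against 6.65% of all genes). Ldhb fell by 1.46 ± 0.16 (SE, adjusted p = 0.0246), Khk fell by 1.34 ± 0.24 (adjusted p = 0.0480) and Pkm rose by 1.28 ± 0.23 (adjusted p = 0.0466). In that fit DECB 5, alone on its slide, adds nothing to the difference, and the slide 1 values of Ldhb and Pkm include an array not above background. With slide as a random block 8 members passed (19.5%, against 15.1%): these 3 and Aldoc, Eno1, Gpi1, Hk3 and Pgd. With array weights 4 passed (9.76%, against 8.25%): the 3 and Pgd. The share of members called thus stayed within 5 percentage points of the share of all genes in each of these settings.

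Without slide 1 none of the 41 members passed (against 0.527% of all genes), and 12 reached an unadjusted p under 0.05 (29.3%, against 23.1% of all genes, limma). Over the 4 arrays left, the groups did not overlap for 32 members (against 57.6% of all genes), of which 27 were lower in DECB livers (65.9%, against 31.1% of all genes) and 5 higher (12.2%, against 26.5%). Without DECB 6 alone, 28 members did not overlap (against 41.2% of all genes), 25 of them lower (61.0%, against 24.4%) and 3 higher (7.32%, against 16.8%). The adjusted p without slide 1 was 0.0564 for Ldhb, 0.0833 for Khk, 0.100 for Pkm and 0.101 for Pgd.

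**Figure D4:**
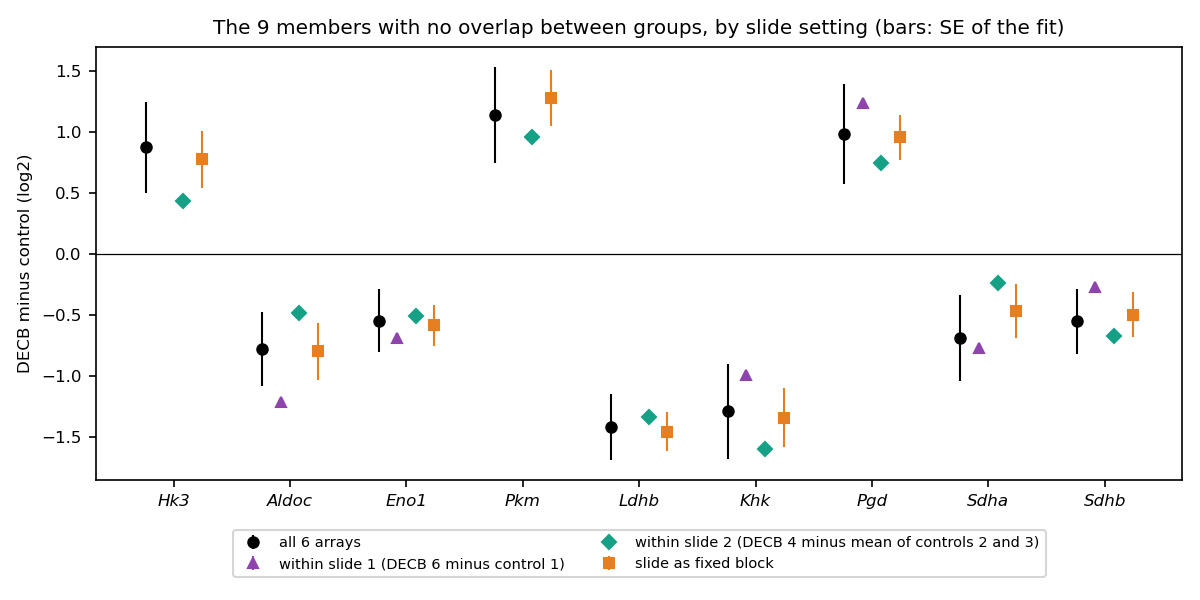
Difference DECB minus control in log2 units (vertical axis) of the 9 members whose groups do not overlap, from the fit on all 6 arrays, inside slide 1, inside slide 2 and from the fixed-block fit. Bars are the SE of the limma fit, and within-slide values have none. The sign within a slide is fixed by the choice of these 9 members, and slide 1 values of Hk3, Pkm and Ldhb, not above background on 1 or both arrays, are left out; Khk was lower by 1.00 inside slide 1 and by 1.60 inside slide 2.

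Other genes of the same pathways, 54 in 3 lists, were read beside the members. Of these 48 were measured and none passed the adjusted threshold, while 4 reached an unadjusted p under 0.05 (8.33%, against 10.0% of all genes, limma): Pfkfb3 and Pfkfb4, higher, and Pklr and Dlat, lower. With slide as a fixed block 3 passed (Pklr, Pfkfb3 and Pgm2, 6.25%, against 6.65% of all genes). Pgm2 was above background on only 2 arrays of each group, and its groups overlapped. With the normexp background correction its difference was 0.33, against 0.81 in the main setting.

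Pklr, the liver pyruvate kinase, measured -1.21, -1.50 and -0.41 in DECB livers and 1.76, 0.66 and 0.09 in control livers. All DECB arrays lay below all controls, in the opposite direction to Pkm at the same step. The difference was -1.88 ± 0.51 (SE), or 3.67-fold lower, with an adjusted p of 0.215 (limma) and of 0.0331 with the fixed slide block. Tkfc, the triokinase of the fructose branch that Khk opens, measured 2.25, 2.95 and 3.61 in DECB livers and 4.34, 3.90 and 3.50 in control livers, with an overlap and a difference of -0.98 ± 0.43 (SE, adjusted p = 0.519). Khk and Tkfc thus both had lower means in DECB livers, and neither passed the test over all arrays.

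Pfkfb3 and Pfkfb4 make the fructose bisphosphate that activates phosphofructokinase. Pfkfb3 measured 1.59, 0.52 and 0.92 in DECB livers and -0.82, -1.24 and -0.33 in control livers, a difference of 1.81 ± 0.39 (SE), or 3.50-fold, with an adjusted p of 0.131 (limma). Pfkfb4 measured -2.39, -1.48 and -0.40 in DECB livers and -4.14, -3.19 and -3.24 in control livers, a difference of 2.10 ± 0.55 (SE, adjusted p = 0.203). For both genes every DECB array lay above every control array, and Pfkfb4 was above background on only 2 control arrays. With the normexp background correction the Pfkfb4 difference was 0.74 (adjusted p = 0.949, limma).

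In the other pentose phosphate genes, of which 9 of 12 were measured, the 4 with the smallest p were Rbks, the ribokinase (-0.65 ± 0.39, SE), Shpk, the sedoheptulokinase (-0.47 ± 0.32), Dera, a deoxyribose-phosphate aldolase (-0.37 ± 0.26), and Pgm2, a phosphoglucomutase that acts on pentose phosphates (0.81 ± 0.60). In the other TCA cycle genes, 22 of 23 measured, Dlat, the acetyltransferase subunit of pyruvate dehydrogenase, was lower without overlap (-0.70 ± 0.28, SE, adjusted p = 0.464, limma). Idh1, the cytosolic isocitrate dehydrogenase, measured 1.42, -0.70 and -1.67 in DECB livers and 0.51, 1.61 and 1.62 in control livers, so its difference of -1.56 ± 0.78 rests on widely spread DECB arrays. Pcx, the pyruvate carboxylase that refills the cycle, differed by -0.45 ± 0.28 without overlap, and D2hgdh, a mitochondrial hydroxyglutarate dehydrogenase, by -0.99 ± 0.62. D2hgdh measured 1.72, 1.80 and 1.71 in DECB livers and 1.67, 4.19 and 2.35 in control livers, with control 2 the high array.

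**Figure D5:**
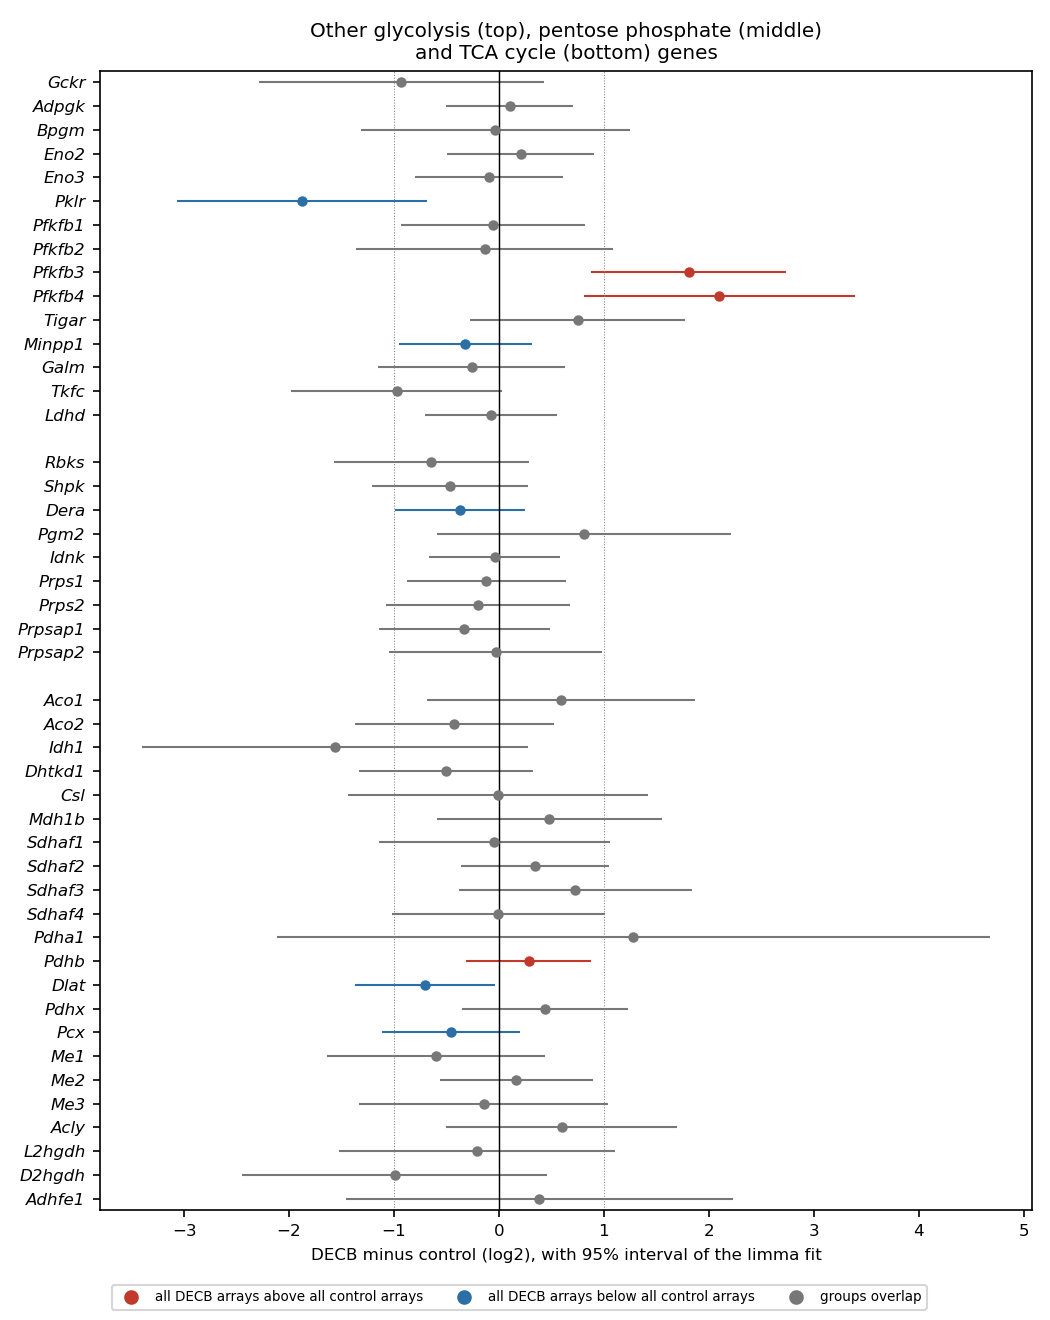
Difference of 46 of the 48 other measured genes of the 3 pathways, DECB minus control in log2 units (horizontal axis), with the 95% interval of the limma fit, in the order glycolysis, pentose phosphate and TCA cycle from top to bottom. Pfkfb3, Pfkfb4, Pklr and Dlat have intervals that stay off 0, and none passed the adjusted threshold.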

How the data were processed

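The deposited files hold scanner data of 6 Agilent 1-colour arrays, read out by Agilent Feature Extraction (version 11.0.1.1), per the file headers and the submitters' processing notes. The processed Cy3 intensity had its background subtracted by that software, per the file headers, and was not normalized between arrays. The authors' deposited value table is on a log2 scale. Its columns all had a median of 5.34, and its deviations per probe did not follow those of the scanner values (r of -0.03 to 0.04 per array over 25315 probes). Its centring and direction are unknown, and it entered no comparison.

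Groups came from the sample titles, and slides from the scan times in the headers. Signals were set on the log2 scale relative to each array's 75th percentile over 43020 non-control spots. This dropped 1377 control spots, and 164 to 322 spots an array marked as outliers were removed too; saturation was marked for no spot. Repeated spots of a probe were averaged. Of 39429 probes, the 25418 that the scanner marked as above background on 3 or more arrays were kept. Genes were named by matching RefSeq accessions to the GRCm38.p6 table (27234 of 28684 probes matched). The array design names an older build, so gene coordinates are given only for promoter windows of that table. The brightest kept probe stood for a gene, which left 14805 genes.

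Tests used limma 3.58.1 (lmFit and eBayes, two-sided) in R 4.3.3, with Benjamini-Hochberg adjustment over all genes and a threshold of 0.05, and were tested on simulated data. With 3 arrays a group, an exact permutation test of 1 gene cannot go below p = 0.1. The number of arrays limits the precision. Members, the other pathway genes and the marker lists were chosen with earlier results of these data known. Members could all be named; of the other pathway genes, those with the smallest unadjusted p (up to 4 a list) and the liver isozyme Pklr were named, and 2 genes that the rule also covers are not reported here. Alternatives changed the background correction, scaling, dim-probe filter, probe per gene, slide, array weights and the arrays included.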

Additional observations from a re-analysis of the deposited data

How the results depend on the processing

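No paired analysis was possible because the groups compared share no replicate number. The count of members called stayed at 0 of 41 under all 6 settings that left out 1 array and under quantile, array-median and normexp processing, the mean of probes, averaged controls and without slide 1; it was also 0 of 44 with no filter and 0 of 38 with all 6 arrays above background, with 2 to 12 members at an unadjusted p under 0.05 over these settings (limma). It was 3 with slide as a fixed block, 8 as a random block and 4 with array weights. The other pathway genes called, 0 in the main setting, numbered 3, 8 and 4 of 48 in those settings. The shares of all genes called there were 6.65%, 15.1% and 8.25%. Over the settings that called no member, 853 to 3416 of all genes reached an unadjusted p under 0.05 (limma), with 9369 to 20659 genes tested. Of all genes, 69 were called in the main setting, against 39 after quantile normalization, 0 with no filter (1257 at an unadjusted p under 0.05, limma), 2 with controls 2 and 3 averaged, 981 and 2221 with the fixed and random slide block, 1221 with array weights and 0 to 53 when 1 array was left out (853 to 2119 at an unadjusted p under 0.05). The fixed block left 2 residual degrees of freedom per gene before eBayes, since DECB 5 was alone on its slide. Members without overlap between the groups numbered 9 to 28 when 1 array was left out and 32 without slide 1, where fewer arrays have to separate. After quantile normalization of all 6 arrays they numbered 6, of which 3 were higher and 3 lower, against 9 in the main setting.

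Leaving out 1 array put the median difference between -0.48 and 0.02 for glycolysis, -0.43 and 0.19 for the pentose phosphate pathway and -0.56 and -0.02 for the TCA cycle. It put 21 to 35 of the 41 members below 0. Over up to 19 alternatives (18 for Hk3, Pkm and Ldhb, which the filter on all 6 arrays leaves out), within-slide values included, 21 members kept their sign, 16 of them lower and 5 higher; for the 9 without overlap the sign within a slide or without 1 array is fixed by that choice. The other 20 changed sign at least once, and none of these differed by more than 0.353 in the main setting. Scaling to the array median moved the median of all genes to -0.16, and the median of the glycolysis, pentose phosphate and TCA cycle members to -0.30, -0.22 and -0.41. The background correction on median signals was chosen after seeing the data, because the files hold no mean signals. Signal over background limits Hk3, Pkm and Ldhb, which were not above background on every array.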

Other observations

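Pdha1, the catalytic alpha subunit of pyruvate dehydrogenase, was chosen after its values were seen. It measured 4.89 on DECB 4, against -0.79 and -0.73 on the 2 other DECB arrays and -0.33, -0.33 and 0.19 on the control arrays (log2 signal relative to the 75th percentile). Its difference of 1.28 ± 1.44 (SE, adjusted p = 0.932, limma) therefore rests on 1 array. Pdhb, the partner subunit of Pdha1, likewise chosen after its values were seen, measured 3.79, 3.78 and 3.61 in DECB livers and 3.42, 3.40 and 3.50 in control livers, with no such array.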
